A study of Mus musculus with 20 samples.

Results

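Gene expression was compared between Tet2 knockout and wild-type LSK cells, the lineage-negative, cKit-positive and Sca1-positive bone marrow fraction of the mouse, in which blood stem cells and multipotent progenitors are found. The comparison uses 8 of the 20 libraries of the series, 4 labelled Tet2-/- (Tet2KO) and 4 labelled +/+;Vav-Cre (WT). Of 46078 gene IDs measured, 14246 had a mean of at least 1 TPM (a transcript abundance corrected for gene length and scaled to the same total in every library) over these 8 libraries, and all of them were tested. Each library was made from total RNA of a pool of 2 C57Bl/6J mice aged 3 to 4 months, so n = 4 pools stands behind each group. Vav-Cre is a recombinase transgene driven by a promoter active in blood-forming cells, and the 12 libraries with a mutant Idh1 or Idh2 allele carry it too. The Tet2-/- label names no Cre and does not say which exons were removed, so the loss of Tet2 and the absence of Cre, if Cre is absent, cannot be told apart.

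Tet2 encodes a dioxygenase that uses iron and 2-oxoglutarate to oxidise 5-methylcytosine in DNA, a step towards demethylation, and it is among the genes most often mutated in clonal haematopoiesis and myeloid malignancy. LSK cells are not yet committed, but single cells among them already transcribe low levels of genes of 1 or several blood lineages, which is called lineage priming. Gata1 and Klf1 are the central transcription factors of the erythroid lineage, and interferon-stimulated genes are known to respond when type I or type II interferon, or nucleic acid in the cytosol, is sensed.

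The 8 libraries held 35.06 to 43.12 M assigned reads (M, 1e+06 reads), read back from the TPM values. Tet2KO replicate 2 stood apart: its mean correlation with the other Tet2KO libraries over genes was 0.947, against 0.964 to 0.968 for the other 3 with their own group, and its deviations from the mean fell with exon length (r = -0.40 across genes). The same correlation was -0.18 to -0.03 in the other Tet2KO libraries and 0.10 to 0.31 in WT. The groups therefore did not overlap in this measure with or without replicate 2, and the part of exon length in the results was not tested beyond a fit with the length trend removed. The transcript Gm23935 held 20.02% of all TPM in Tet2KO replicate 2, against 8.03% to 13.52% in the other WT and Tet2KO libraries. The median TPM of protein-coding genes was 16.96 in Tet2KO replicate 2, against 22.88 to 29.88 in those libraries. The part of this transcript in the low TPM values of replicate 2 was not tested. Results are given as fitted over all libraries. Of the called genes named below, 21 no longer passed without Tet2KO replicate 2: Aif1, C1qb, C1qc, Cbfb, Ccnb1, Ccne2, Cdkn1a, Cxcl9, Fen1, Fosb, Hbb-bt, Id2, Ier3, Ifi27, Ifi27l2a, Ifitm3, Isg15, Klrd1, Nr4a1, Rrm2 and Trbc2.

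Tet2 itself (ENSMUSG00000040943, chr3:133463679-133545139 in mm10, minus strand) gave 7.22, 6.67, 6.89 and 9.23 TPM in WT replicates 1 to 4 and 11.2, 5.74, 12.1 and 10.6 TPM in Tet2KO. The groups overlapped, with a log2 difference of 0.32 (SE 0.20, adjusted p = 0.29 with limma), or 0.54 without Tet2KO replicate 2 (adjusted p = 0.051). With the length trend removed Tet2 passed in limma, at 0.44 (adjusted p = 0.0042), and at 0.49 without replicate 2 as well (adjusted p = 0.0030). It was called higher in 5 of 24 alternatives. The Tet2 values are reads summed over the whole gene, and since the deleted exons are not named they check nothing about the label. Tet1 at a log2 difference of -0.07 and Tet3 at 0.08, the other members of the family, did not pass the test, and neither did Idh1 (-0.16) or Idh2 (0.12), which make 2-oxoglutarate. None of the 21 tested genes of cytosine methylation, its oxidation and base excision repair passed in limma as reported (1 higher and 3 lower at an unadjusted p under 0.05), with differences from -0.61 for Dnmt1, the maintenance methyltransferase, to 0.48. With the length trend removed 2 of them were called higher and 3 lower, in a fit that called 993 of all tested genes higher and 1383 lower. Of the 15 other genes tested within 2 Mb of Tet2, 1 passed, where 7.43% of all tested genes passed in either direction. It was Sgms2, a sphingomyelin synthase gene, at 2.72, 1.68, 2.91 and 2.11 TPM in WT and 0.905, 0.239, 1 and 1.07 TPM in Tet2KO (log2 difference -0.91, SE 0.20, adjusted p = 0.014), and it was chosen after its value was seen.

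The sort genes were present in every library, as the gate implies. Kit read 335 to 427 TPM in WT and 432, 97.9, 456 and 334 TPM in Tet2KO, the low value being replicate 2, and its log2 difference was -0.45 with that library and 0.06 without it, neither passing. Ly6a, which encodes the Sca1 antigen of the gate, was the only 1 of the 7 sort and subset genes to pass. Its TPM was 185, 183, 155 and 149 in WT and 273, 350, 271 and 272 in Tet2KO, all above WT (log2 difference 0.79, SE 0.11, adjusted p = 0.0010). The 12 Idh mutant libraries read 115 to 197 TPM. Cd34, Slamf1, Cd48 and Flt3, which divide LSK cells into stem cells and multipotent progenitors, did not pass, with log2 differences of -0.07, -0.41, 0.10 and 0.14. Cd34 was at 0.11 without Tet2KO replicate 2.

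Over all 14246 genes, 758 were higher in Tet2KO (5.32%) and 300 lower (2.11%), together 1058 or 7.43%, in a limma fit with 5 group means over all 20 libraries and an adjusted p under 0.05. A further count over all tested genes, of those whose 4 Tet2KO libraries all lay above or all below the 4 WT libraries, gave 9.3% above and 4.47% below. Only 148 of the higher and 33 of the lower genes differed by 1 or more on the log2 scale. The balance of directions depended on the scaling. With median-of-ratios scaling 1165 genes were higher (8.18%) and 1536 lower (10.8%), and with the length trend removed 993 were higher and 1383 lower. Without Tet2KO replicate 2 the counts were 806 (5.66%) and 235 (1.65%), and the median of all genes moved from 0.03 to 0.11. Leaving out any 1 of the other 7 libraries gave 231 to 790 higher and 48 to 678 lower genes, the fewest in both directions without WT replicate 3. When the spread was estimated from the 8 libraries alone, 40 genes were higher and 7 lower. To separate calls that hang on these choices from those that do not, 6 fits were compared (as reported, 2 other scalings, length trend removed, and both the first and the last of these without Tet2KO replicate 2), a choice made after the data were seen. In all 6, 240 genes were higher (1.68%) and 161 lower (1.13%). Of the genes described next, Klf1, Sphk1, Rps6ka2, Hpse, Malat1, Ifitm1, Ly6a, Hmga2, Il4, Nradd, Fcna, Slc35d3, Hbb-bs, Wfdc17, Rtp4, C1qc, Sva, Gm37068 and Gm14044 also passed with the spread of the 8 libraries alone, and every other gene called below did not.

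**Figure D1:**
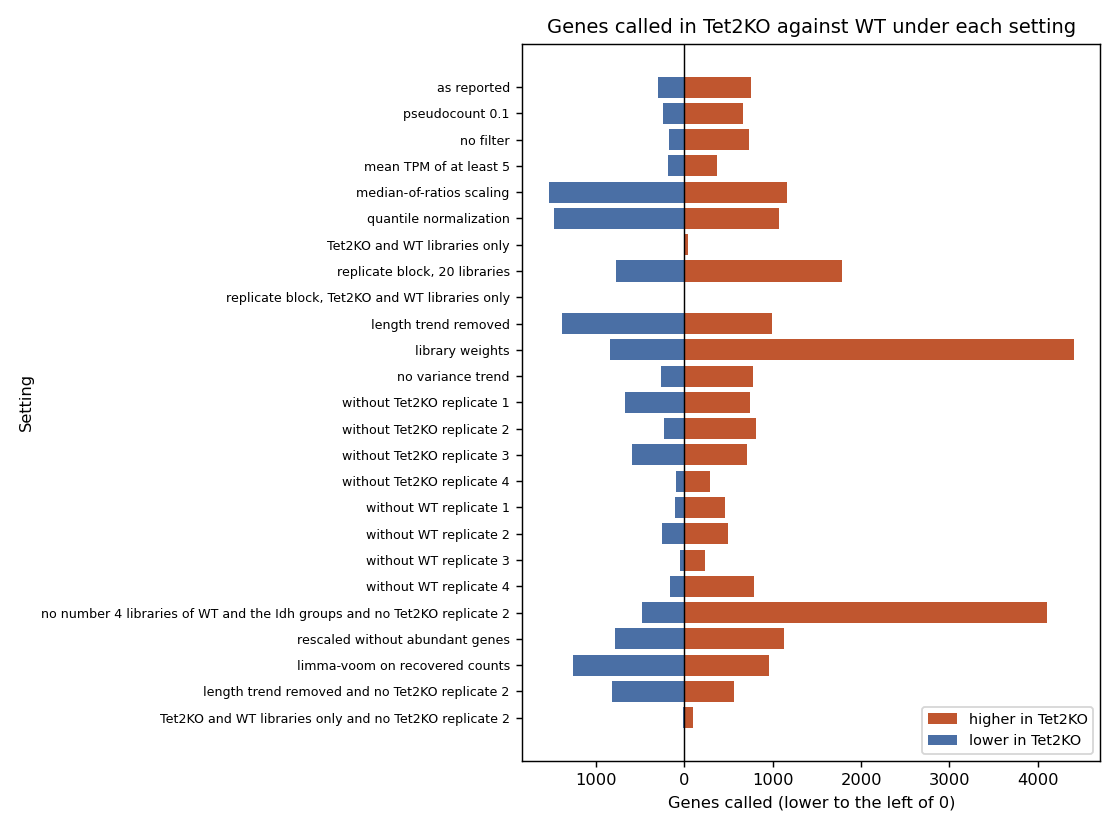
Number of genes called higher (right of 0) and lower (left of 0) in Tet2KO than in WT at an adjusted p under 0.05, for the fit as reported and 24 alternatives (vertical axis). The number and the balance of calls both moved, from 4 higher and 3 lower genes with a replicate block over 8 libraries to 4413 higher and 839 lower genes with library weights.

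Part of the erythroid priming list was lower in Tet2KO. Of 23 tested genes of the erythroid priming list 9 were called lower (39.1%, against 2.11% of all genes) and 1 higher, with a median log2 difference of -0.27 where the median of all genes was 0.03. The count was 9 lower and 1 higher without Tet2KO replicate 2 as well, and all 9 were called lower in each of the 6 fits. With the spread of the 8 libraries alone 2 of the 9, Klf1 and Sphk1, were called. Klf1 (ENSMUSG00000054191, chr8:84901928-84905291), which activates globin and haem genes, gave 54, 48.2, 63.2 and 57.2 TPM in WT and 30.5, 28.7, 24.9 and 28.9 TPM in Tet2KO. The groups were far apart, with means of 55.7 ± 6.28 and 28.3 ± 2.39 (SD, n = 4) and a log2 difference of -0.95 (SE 0.12, adjusted p = 0.00046). Gata1 (ENSMUSG00000031162, chrX:7959260-7978071), which acts above Klf1, read 49.4, 41.4, 52.9 and 52.2 TPM in WT and 33.2, 24.6, 28.5 and 31.7 TPM in Tet2KO (log2 difference -0.72, SE 0.12, adjusted p = 0.0053). No Tet2KO library reached the lowest WT library for either factor.

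Surface and membrane proteins of the red cell lineage made up most of the other called members. Ermap, an erythroblast membrane protein, fell from 19.7, 20.1, 28.7 and 25.1 TPM to 10.4, 5.89, 10.3 and 12.5 TPM (log2 difference -1.20, SE 0.18, adjusted p = 0.0021). Sphk1, a sphingosine kinase, fell from 9.71, 10.7, 13.3 and 10.3 TPM to 4.45, 3.52, 4.71 and 5.99 TPM (-1.09, SE 0.14, adjusted p = 0.00065). Both kept a gap between the groups in every library. The other called members were Rhd and Aqp1 with their membrane products, Add2 of the membrane skeleton, the urea transporter gene Slc14a1, and Epor, the receptor for erythropoietin, at log2 differences of -1.01 to -0.52. Epor gave 18.7 to 24 TPM in WT and 12 to 17.4 TPM in Tet2KO. Car1, a carbonic anhydrase gene of the lineage, did not pass at -0.79 (adjusted p = 0.057). The transferrin receptor Tfrc (-0.29) and the factors Gfi1b (-0.17) and Zfpm1 (-0.17) did not pass either. The 1 member called higher was Cnrip1, at 9.75 to 13.3 TPM in WT and 15 to 22.6 TPM in Tet2KO.

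Among the 12 Idh libraries, Klf1 read 57.2 to 78.7 TPM in Idh1R132H, 45.6 to 56.5 in Idh2R140Q and 6.9 to 9.2 in Idh2R172K, so the Tet2KO level lay between the WT range and that of Idh2R172K. These levels are given as a description, since each mutant group shares the WT libraries. In bulk RNA, fewer cells carrying a transcript and less of it per cell cannot be told apart.

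**Figure D2:**
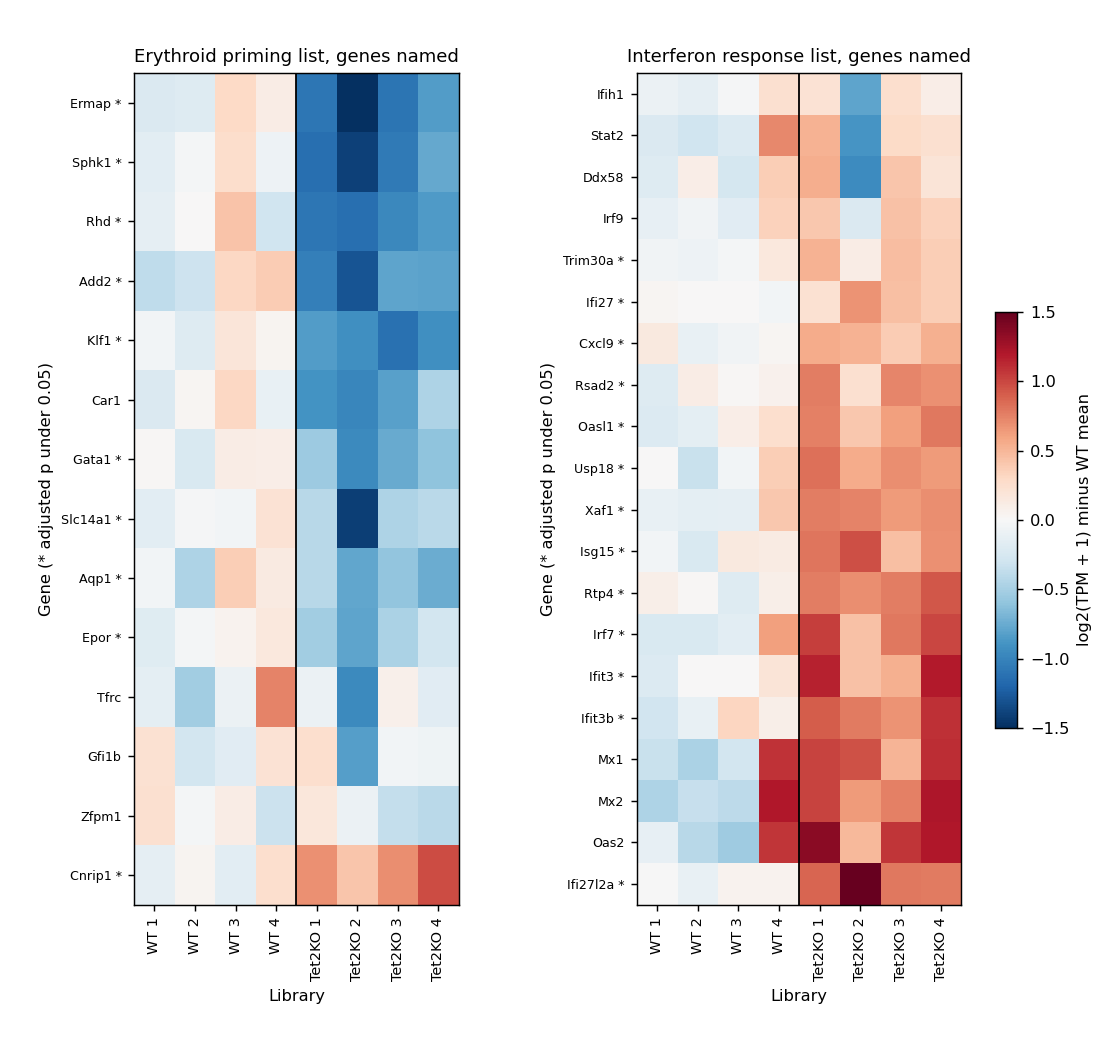
Heat map of log2(TPM + 1) minus the WT mean (colour scale from -1.5 to 1.5) in each of the 8 libraries (columns) for the members named in the text, 14 of the erythroid priming list (left) and 20 of the interferon response list (right), ordered by the log2 difference. Stars mark an adjusted p under 0.05. The 9 starred genes in the upper part of the left panel are blue in all 4 Tet2KO libraries. In the right panel WT replicate 4 is the highest WT library for Mx1, Mx2 and Oas2, and Tet2KO replicate 2 is blue for Stat2, Ddx58 and Ifih1 where the other 3 are not.

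The genes of mature red cells split. Of 11 tested red cell markers 5 were called higher (45.5%, against 5.32% of all genes) and 3 lower (27.3%, against 2.11%). The 5 were the globins Hba-a1, Hba-a2, Hbb-bs and Hbb-bt and the haem synthesis enzyme Alas2. Hbb-bs, an adult beta globin, rose from 9.16, 7.51, 11.4 and 9.22 TPM to 19.6, 22.6, 22.1 and 20.1 TPM (log2 difference 1.11, SE 0.21, adjusted p = 0.0076). Alas2, which starts haem synthesis in red cells, was near the detection filter, at 0.436 to 0.644 TPM in WT and 1.35 to 1.71 TPM in Tet2KO. It passed that filter only through the Tet2KO libraries. Among the 3 lower members Sptb, the beta spectrin of the red cell skeleton, gave 2.13, 1.95, 3.06 and 2.29 TPM in WT and 1, 0.234, 1.2 and 0.942 TPM in Tet2KO (-0.89, SE 0.18, adjusted p = 0.011). The globin genes share much sequence, and how reads were divided between them is not given in the sources used here. The summed level of the 12 red cell markers was 77.9 to 109 TPM in WT and 121 to 160 TPM in Tet2KO, with no overlap, and the part of RNA from residual red cells in the globin values was not tested.

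Megakaryocyte and stem cell genes are presented together because both share Vwf, the von Willebrand factor gene, which marks stem cells biased towards platelets. Vwf fell from 9.72, 7.42, 7.89 and 9.34 TPM to 4.08, 1.19, 4.12 and 4 TPM (log2 difference -1.22, SE 0.28, adjusted p = 0.020). Gp5, a subunit of the platelet receptor for that factor, fell from 17.6, 10.6, 23.2 and 10.3 TPM to 7.62, 3.04, 4.6 and 5.03 TPM (-1.41, SE 0.32, adjusted p = 0.016). These were the 2 called members of the 22 tested megakaryocyte genes (9.09% lower, against 2.11% of all genes). The median of that list was -0.36 with all libraries and 0.00 without Tet2KO replicate 2, so its median rested on that library while both calls held without it. Itga2b, the platelet integrin CD41, gave 90.9 to 133 TPM in WT and 102, 36.8, 108 and 93.6 TPM in Tet2KO and did not pass.

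Of 34 tested stem cell genes 4 were called higher (11.8%, against 5.32% of all genes) and 1, Vwf, lower (2.94%, against 2.11%), with a median of 0.19. The 4 were Ly6a, described above, Msi2, an RNA-binding regulator of self-renewal, the homeobox gene Hoxb5, and Pdzk1ip1. Msi2 read 15.8, 14.5, 13 and 11.4 TPM in WT and 24.3, 22.8, 21.1 and 20.3 TPM in Tet2KO, a rise in every library (log2 difference 0.66, SE 0.13, adjusted p = 0.010). The list had, without Tet2KO replicate 2, 9 members called higher and 1 lower. Procr, the EPCR marker of stem cells, gave 18.5, 29.2, 17.6 and 39.1 TPM in WT and 49.7, 26.3, 43.7 and 37.1 TPM in Tet2KO, and the groups overlapped (adjusted p = 0.25). Hlf (-0.13) and Mecom (-0.38), transcription factors of stem cells, did not pass.

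Of the 8 Hox genes tested, the 2 called (25% higher, against 5.32% of all genes) were neighbours. Hoxb4 (chr11:96318267-96321638) gave 0.933 to 1.28 TPM in WT and 1.99 to 4.21 TPM in Tet2KO (log2 difference 0.84, adjusted p = 0.015), and Hoxb5 (chr11:96303336-96306121) gave 0.876 to 1.26 TPM and 1.83 to 2.59 TPM (0.67, adjusted p = 0.020). Next to them the antisense gene Hoxb5os gave 2.81 to 3.22 TPM in WT and 5.67 to 11.3 TPM in Tet2KO (0.98, adjusted p = 0.018). Hoxb5os overlaps Hoxb5 on the other strand, and no strand setting is given in the sources used here, so reads of the pair cannot be told apart. The Hoxa genes tested, which include Hoxa9, did not pass, at -0.11 to 0.38.

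Granulocyte and monocyte genes were lower where they passed. Of 32 tested members 4 were called lower (12.5%, against 2.11% of all genes) and none higher by limma (11 lower and 4 higher at an unadjusted p under 0.05), with a median of -0.19. Hk3, a myeloid hexokinase, fell from 145, 119, 154 and 206 TPM to 90, 59.9, 95 and 81.4 TPM (log2 difference -0.92, SE 0.18, adjusted p = 0.0078). Trem3, a myeloid receptor, fell from 34.6, 19.3, 35.4 and 25.7 TPM to 8.5, 14.3, 11.9 and 15.7 TPM (-1.12, SE 0.28, adjusted p = 0.025). The serine protease Prss57 and the annexin Anxa3 were the other 2. Mpo, the myeloperoxidase of neutrophil granules, gave 3860, 2573, 4042 and 3956 TPM in WT and 2411, 2184, 2598 and 2946 TPM in Tet2KO, and Cebpa, the master factor of the lineage, 9.63 to 27.6 TPM and 8.23 to 14.9 TPM. Neither passed (adjusted p = 0.13 and 0.15), and 1 WT library lay within the Tet2KO range for each. Spi1, which encodes PU.1, did not pass at 0.24.

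In the lymphoid list 2 of 23 tested members were called higher (8.70%, against 5.32% of all genes) and none lower by limma (6 higher and 2 lower at an unadjusted p under 0.05). Cd52 rose from 190, 223, 208 and 148 TPM to 310, 569, 309 and 307 TPM (log2 difference 0.92, SE 0.17, adjusted p = 0.0062), and Ltb, lymphotoxin beta, from 70.9, 83, 47.5 and 86.4 TPM to 166, 148, 130 and 122 TPM (0.99, SE 0.23, adjusted p = 0.018). Dntt, the terminal transferase of early lymphoid cells, was 705 to 1092 TPM in WT and 770 to 1012 TPM in Tet2KO, and the groups overlapped. Among transcription factors of blood cells, 2 of 48 were called higher (4.17%), Ikzf2 (Helios) and Id2, and 3 lower (6.25%, against 2.11% of all genes), Klf1, Gata1 and Cbfb. Ikzf2 rose from 7.36 to 11.6 TPM in WT to 15.2 to 18.5 TPM in Tet2KO (0.79, adjusted p = 0.0078). Of 30 cytokine receptors 2 were called lower (6.67%), Epor and Il1rl1, the IL-33 receptor, which read 2.71 to 5.33 TPM in WT and 0.995 to 2.32 TPM in Tet2KO.

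**Figure D3:**
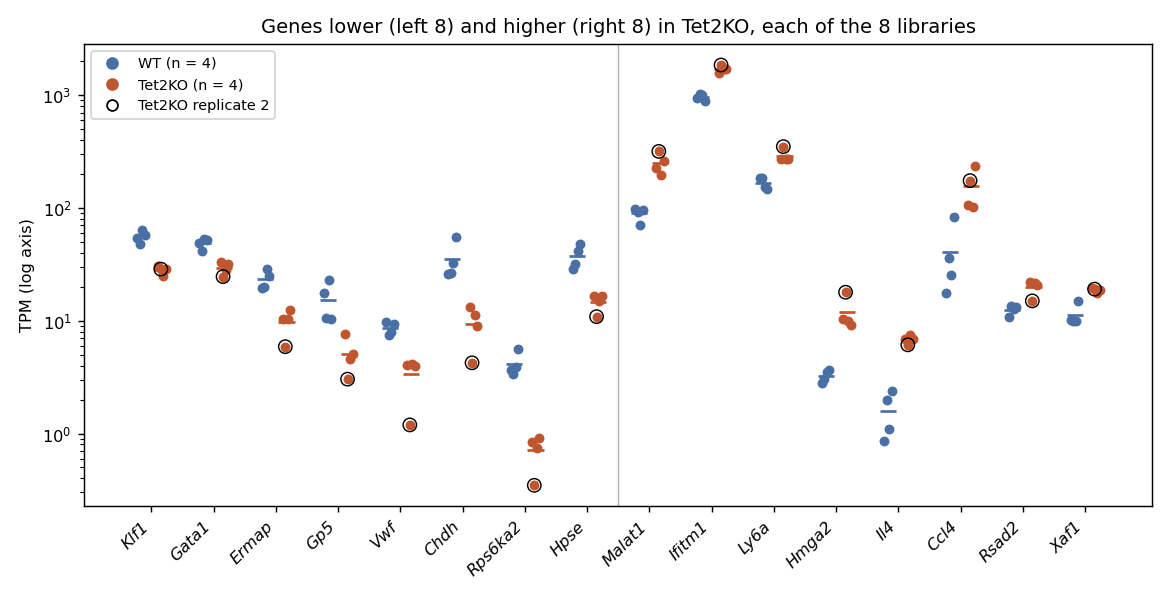
TPM (log axis) of 16 genes in each WT and Tet2KO library, with a line at the mean of 4 and a ring around Tet2KO replicate 2. The 8 genes on the left were called lower and the 8 on the right higher in Tet2KO, and for all 16 the 2 groups do not overlap.

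Some interferon-stimulated genes were higher. Of 45 tested members of the interferon response list 13 were called higher (28.9%, against 5.32% of all genes) and none lower by limma (25 higher and 1 lower at an unadjusted p under 0.05), 38 lay above 0, and the median log2 difference was 0.36. Without Tet2KO replicate 2 the counts were 18 higher and none lower, with median-of-ratios scaling 16 and none, and 6 of the 13 were called in all 6 fits. With the spread of the 8 libraries alone 1 of the 13, Rtp4, was called. The 4 members with the smallest p were Ifit3b, Rsad2, Oasl1 and Xaf1. Ifit3b averaged 0.785 TPM in WT and 2.23 TPM in Tet2KO, so it passed the 1 TPM filter only through the Tet2KO libraries. Rsad2, the antiviral enzyme viperin, gave 10.8, 13.6, 12.7 and 13.2 TPM in WT and 22, 15, 21.4 and 20.8 TPM in Tet2KO (log2 difference 0.61, SE 0.15, adjusted p = 0.022). Xaf1 gave 10.1, 9.85, 9.95 and 14.9 TPM in WT and 19.5, 19.1, 17.8 and 18.6 TPM in Tet2KO (0.71, SE 0.18, adjusted p = 0.025). Oasl1, a homologue of oligoadenylate synthetases, gave 13.5 to 18.9 TPM and 21.2 to 27.9 TPM. For each the lowest Tet2KO library was above the highest WT library. The other 9 called members were Ifit3, Rtp4, Ifi27l2a, Usp18, Cxcl9, Irf7, Isg15, Trim30a and Ifi27, at 0.36 to 1.11. Other genes of interferon signalling and RNA sensing were among those that did not pass: Stat2 was at 0.04, Irf9 at 0.25, Ifih1 at -0.05 and Ddx58 at 0.05. Without Tet2KO replicate 2, which was the lowest Tet2KO library for all 4, these values were 0.35, 0.40, 0.19 and 0.39, and again none passed. Of 8 guanylate-binding protein genes 0 passed in limma, and 0 at an unadjusted p under 0.05, while 1 passed without Tet2KO replicate 2.

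The promoters of 3 called interferon members are shown because each holds the core of the interferon-stimulated response element, which is GAAA, any 2 bases and GAAA again, searched on both strands. The windows run from 250 bases before to 50 after the start site (RefSeq, GRCm38.p6), and capitals mark the motif.
Rsad2, chr12:26456403-26456702, minus strand: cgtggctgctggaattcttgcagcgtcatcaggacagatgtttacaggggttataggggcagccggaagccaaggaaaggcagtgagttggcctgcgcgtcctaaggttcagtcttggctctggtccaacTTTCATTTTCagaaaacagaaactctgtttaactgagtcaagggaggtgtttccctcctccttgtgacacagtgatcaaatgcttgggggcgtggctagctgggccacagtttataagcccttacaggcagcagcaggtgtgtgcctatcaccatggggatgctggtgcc
Isg15, chr4:156200769-156201068, minus strand: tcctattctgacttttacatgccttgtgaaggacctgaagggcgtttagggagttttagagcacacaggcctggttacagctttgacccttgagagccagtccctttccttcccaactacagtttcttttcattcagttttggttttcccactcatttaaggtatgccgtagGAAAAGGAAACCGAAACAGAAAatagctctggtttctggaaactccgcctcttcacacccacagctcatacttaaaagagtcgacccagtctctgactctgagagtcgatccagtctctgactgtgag
Ifit3, chr19:34583279-34583578, plus strand: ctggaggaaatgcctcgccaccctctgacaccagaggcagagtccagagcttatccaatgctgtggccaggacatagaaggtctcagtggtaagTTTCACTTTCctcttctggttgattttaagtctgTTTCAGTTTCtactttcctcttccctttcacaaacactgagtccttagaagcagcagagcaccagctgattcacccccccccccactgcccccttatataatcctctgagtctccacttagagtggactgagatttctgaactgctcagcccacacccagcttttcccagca
Isg15 holds 3 overlapping matches and Ifit3 holds 2. Windows were found for 9 of the 13 called members, and Trim30a and Ifit3b hold the motif as well while Irf7, Cxcl9, Xaf1 and Oasl1 have no match in this window. Of the 33 tested list members with a window, called or not, 22 hold it. Over 9287 protein-coding genes with a window 3.29% hold it, which is given as a description, since windows were found for fewer than 80% of the list's members. A match describes letters and is not a measured site. For the erythroid list, the GATA letters AGATAA were found in the windows of 2 of 8 called lower members, Rhd and Epor, against 6.54% of all. Other forms of the GATA site were not searched, so a window without these letters may still hold one. The Gata1 window lies 10161 bases from the annotated start of that gene. Of the 19 tested members of that list with a window, called or not, 4 hold these letters. The windows of Rhd and Epor are shown because they are the called lower members that hold these letters, and capitals mark the match.
Rhd, chr4:134864286-134864585, plus strand: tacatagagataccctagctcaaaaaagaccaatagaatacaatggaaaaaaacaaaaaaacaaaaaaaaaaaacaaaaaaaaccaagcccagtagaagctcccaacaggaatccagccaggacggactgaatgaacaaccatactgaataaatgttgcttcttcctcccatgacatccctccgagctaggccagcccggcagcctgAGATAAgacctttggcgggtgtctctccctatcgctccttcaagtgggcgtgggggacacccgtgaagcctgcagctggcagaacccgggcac
Epor, chr9:21963527-21963826, minus strand: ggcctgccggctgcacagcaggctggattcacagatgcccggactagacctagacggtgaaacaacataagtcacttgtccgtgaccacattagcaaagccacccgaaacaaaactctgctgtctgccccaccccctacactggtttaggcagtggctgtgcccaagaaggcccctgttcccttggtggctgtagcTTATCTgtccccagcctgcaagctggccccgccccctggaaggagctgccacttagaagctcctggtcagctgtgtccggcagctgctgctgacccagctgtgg
A comparison of CG content and motif shares between all called and all tested genes was void, because windows were found for only 320 of 411 higher and 222 of 292 lower protein-coding genes, under 80%.

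Ifitm1 had the largest difference in mean TPM among the called genes named here. It encodes an interferon-induced membrane protein (ENSMUSG00000025491, chr7:140967221-140969825) and gave 939, 1020, 1012 and 883 TPM in WT and 1576, 1855, 1719 and 1696 TPM in Tet2KO. The means were 963 ± 65.1 and 1711 ± 114 (SD, n = 4), the log2 difference 0.83 (SE 0.10) and the adjusted p 0.00036, and it passed under all 24 alternatives, with adjusted p from 3.6e-05 to 0.045. Ifitm3 and Ifitm7 were also called higher among 6 tested members of the family (50% with Ifitm1, against 5.32% of all genes). Ifitm3 was at 0.52 (adjusted p = 0.026, and 0.059 without Tet2KO replicate 2, by limma). In the same range of abundance Wfdc17 rose from 493, 476, 496 and 374 TPM to 831, 909, 865 and 881 TPM.

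Markers of some other cell types had members called higher as well. The summed level of 18 macrophage markers was 204 to 237 TPM in WT and 292 to 317 TPM in Tet2KO, with no overlap, and C1qb, C1qc and Spic were called higher among 17 tested (17.6%, against 5.32% of all genes). Only Spic was called without Tet2KO replicate 2. C1qb, a complement subunit made by macrophages, rose from 24.4, 16.8, 23.1 and 26.4 TPM to 40.6, 62.8, 44.8 and 50 TPM (log2 difference 1.09, adjusted p = 0.025). Adgre1, which defines mouse macrophages, was 3.75 to 5.09 TPM in WT and 4.85 to 6.16 TPM in Tet2KO. Of 15 dendritic and class II markers, summing to 966 to 1463 TPM in WT and 1428 to 1866 TPM in Tet2KO, 3 of 12 tested were called higher (25%). T and NK markers summed to 63.8 to 103 TPM and 90.2 to 125 TPM, with Trbc2 and Klrd1 called higher (neither without Tet2KO replicate 2) and Cd3e at 0 to 0.679 TPM in WT and 0.27 to 1.08 TPM in Tet2KO. Neutrophil, B lineage, plasma cell, eosinophil and stromal lists had 0 called members by limma with or without Tet2KO replicate 2, and at an unadjusted p under 0.05 only 1 neutrophil and 1 B lineage gene. Their median log2 differences were 0.13, 0.41, 0.02, 0.51 and 0.08 in this order. All 9 tested eosinophil markers and 7 of 8 tested B lineage markers lay above 0. The part of these cells in the interferon result was not tested.

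Immediate early genes, which respond within minutes to handling and to many signals, were also higher in places. Of 21 tested 3 were called higher (14.3%, against 5.32% of all genes), Ier3, Fosb and Nr4a1, and none of the 3 passed without Tet2KO replicate 2. By limma 10 were higher and 0 lower at an unadjusted p under 0.05, and 19 lay above 0. The median log2 difference of the list was 0.71 with all libraries and 0.77 without Tet2KO replicate 2. Fosb gave 1.11, 0.948, 0.578 and 7 TPM in WT and 6.59, 14.4, 8.11 and 30.6 TPM in Tet2KO, and the number 4 library was the highest of each group. Ccl4, a chemokine, rose from 17.5, 36.3, 25.4 and 82.7 TPM to 106, 175, 102 and 238 TPM (log2 difference 2.06, SE 0.52, adjusted p = 0.025), and it too was highest in the number 4 libraries. The part of the handling of the pools in these values was not tested.

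**Figure D4:**
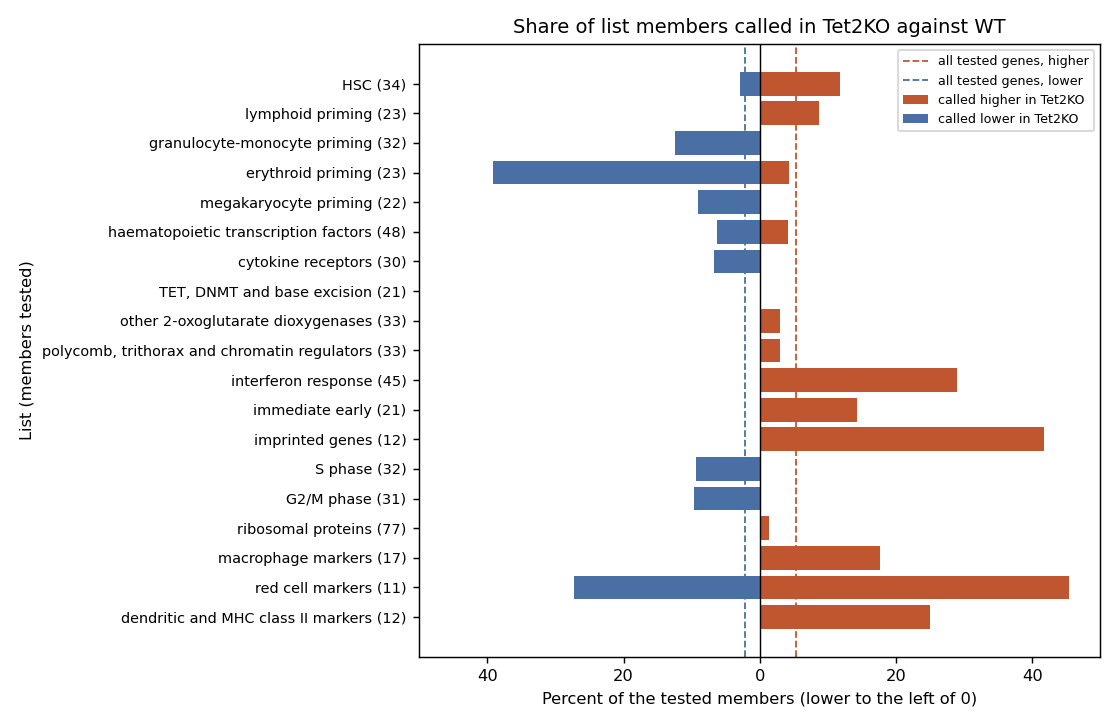
Percent of the tested members of 19 lists called higher (right of 0) and lower (left of 0) in Tet2KO than in WT, with dashed lines at the shares of all tested genes (5.32% higher and 2.11% lower). The longest bar to the left is the erythroid list, at 39.1%, and the longest to the right are the red cell markers (45.5%), the imprinted genes (41.7%) and the interferon list (28.9%).

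Hmga2, an architectural chromatin protein typical of fetal stem cells (ENSMUSG00000056758, chr10:120361275-120476469), rose from 2.83, 3.07, 3.5 and 3.69 TPM to 10.4, 17.9, 10 and 9.17 TPM. The means were 3.27 ± 0.393 and 11.9 ± 4.05 (SD, n = 4), and the log2 difference was 1.55 (SE 0.21, adjusted p = 0.00087). The Idh2R172K libraries read 10 to 14.8 TPM and the other Idh libraries 4.23 to 8.52 TPM. Of the 5 tested genes of the fetal list Dlk1 was the other one called, at 0.598 to 0.886 TPM in WT and 1.34 to 2.86 TPM in Tet2KO, and it is imprinted. Dlk1 therefore passed the 1 TPM filter only through the Tet2KO libraries, while 8 listed genes were under it and were not tested. Arid3a (0.04), Igf2bp2 (-0.02) and Hmga1 (-0.30) did not pass.

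Of 12 tested imprinted genes, expressed from 1 parental copy, 5 were called higher (41.7%, against 5.32% of all genes) and none lower by limma (7 higher and 1 lower at an unadjusted p under 0.05), with a median of 0.43. Besides Dlk1 they were Ndn, Kcnq1ot1, Phlda2 and Sgce. Ndn, a growth suppressor of quiescent cells, read 11.5, 11.5, 10.5 and 8.97 TPM in WT and 16.9, 14, 19.3 and 16.3 TPM in Tet2KO (log2 difference 0.60, SE 0.13, adjusted p = 0.016). Kcnq1ot1 and Phlda2 lie in 1 imprinted domain with Cdkn1c. Igf2r (-0.68), Grb10 (-0.45) and Cdkn1c (-0.43) were measured below WT and did not pass. A further 11 listed genes were under 1 TPM and were not tested.

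Il4, which encodes a cytokine of T helper cells, basophils and mast cells (ENSMUSG00000000869, chr11:53602982-53618669), was 0.863, 1.99, 1.1 and 2.38 TPM in WT and 6.89, 6.12, 7.52 and 6.83 TPM in Tet2KO. The difference was 1.64 on the log2 scale (SE 0.22, adjusted p = 0.00088), and the 12 Idh libraries read 0.747 to 3.28 TPM. The 11 basophil and mast cell markers summed to 333 to 426 TPM in WT and 412 to 618 TPM in Tet2KO, which overlap. Of 7 tested, Prss34, a basophil protease, was called higher (95.9 to 143 TPM in WT, 175 to 291 in Tet2KO) and Il1rl1 lower. The part of basophils in the Il4 value was not tested.

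Other genes with a large rise were Nradd, a death-domain membrane protein (3.27, 3.53, 4.86 and 5.38 TPM in WT, 10.9, 10.9, 12.3 and 10.5 in Tet2KO, log2 difference 1.23, adjusted p = 0.0015), and Slc35d3, a nucleotide sugar transporter family member (7.55 to 10.7 TPM and 18.7 to 29 TPM, 1.18, adjusted p = 0.0092). Fcna, ficolin A, gave 12 to 14.8 TPM in WT and 25.1 to 39.8 TPM in Tet2KO. Slc15a2, Hba-a2, Qpct, Fam181b, Lncpint, Ecscr and Lst1 completed the rule's largest rises, between 1.02 and 1.20. Kdm6b, a histone H3 lysine demethylase of the same enzyme class as Tet2, was the only 1 of 33 other 2-oxoglutarate dioxygenases called. That is 3.03% higher, below the 5.32% of all genes. Kdm6b rose from 2.68, 3.1, 2.99 and 3.51 TPM to 5.28, 8.39, 4.59 and 5.24 TPM (0.73, SE 0.15, adjusted p = 0.011).

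Among the largest falls Rps6ka2, a ribosomal S6 kinase of the MAP kinase pathway (ENSMUSG00000023809, chr17:7170115-7303315), went from 3.65, 3.35, 3.93 and 5.6 TPM to 0.841, 0.347, 0.748 and 0.91 TPM (log2 difference -1.58, SE 0.20, adjusted p = 0.00065). Chdh, which oxidises choline in mitochondria, fell from 25.9, 26.8, 32.6 and 55.2 TPM to 13.1, 4.24, 11.3 and 8.99 TPM (-1.82, SE 0.31, adjusted p = 0.0049). Hpse, heparanase, fell from 29, 32, 41.4 and 47.9 TPM to 16.8, 10.9, 15.1 and 16.5 TPM (-1.28, SE 0.20, adjusted p = 0.0029), and Ces2g, a carboxylesterase, from 41.9 to 62.2 TPM to 11.5 to 23.7 TPM (-1.30). In each the highest Tet2KO library was below the lowest WT library. In Idh2R172K the 4 genes were also low, at 0.561 to 1.16, 0.379 to 1.03, 6.76 to 11.8 and 2.73 to 4.45 TPM in this order.

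In a second group of falls the size of the difference rested on Tet2KO replicate 2. Nup210, a nuclear pore membrane protein, gave 382, 409, 451 and 477 TPM in WT and 270, 73.7, 294 and 215 TPM in Tet2KO. Its log2 difference was -1.18 with all libraries and -0.73 without replicate 2 (adjusted p = 0.022 and 0.0081). Cad, of pyrimidine synthesis (-1.14 and -0.79), Heatr1, of ribosome production (-1.14 and -0.71), Usp9x, a deubiquitinase (-1.20 and -0.72), Wdfy2 (-1.21 and -0.67) and Edem3 (-1.16 and -0.77) followed the same course, and the amino acid transporter Slc7a5 less so (-1.17 and -0.99). Of 28 nucleoporin genes, a family looked up after Nup210 was seen, 10 were called lower (35.7%, against 2.11% of all genes) and none higher by limma (16 lower and 0 higher at an unadjusted p under 0.05). Without replicate 2 there were 9 lower, and the median moved from -0.52 to -0.25.

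Of 32 genes of S phase 3 were called lower (Rrm2, Ccne2 and Fen1, 9.38%, against 2.11% of all genes), with a median of -0.35. Of 31 genes of G2/M 3 were called lower (Ccna2, Plk1 and Ccnb1, 9.68%), with a median of -0.24. At an unadjusted p under 0.05 there were 18 and 11 lower. Without Tet2KO replicate 2 the counts were 0 and 2 and the medians -0.19 and -0.08, while with median-of-ratios scaling they were 18 and 12. Ccna2, cyclin A2, gave 159, 135, 194 and 166 TPM in WT and 122, 74.4, 122 and 110 TPM in Tet2KO, without overlap (log2 difference -0.62, SE 0.14, adjusted p = 0.018). Mki67, the proliferation antigen, did not pass at -0.32 (adjusted p = 0.16). Of the cell cycle inhibitors Cdkn2d and Cdkn1a were called higher and Cdkn2c lower.

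The 77 ribosomal protein genes had 1 called member and a median of 0.19, which became -0.12 with the length trend removed and without Tet2KO replicate 2. The heat shock, DNA damage and mitochondrial transcript lists had 0 members called by limma, and at an unadjusted p under 0.05 they had 2 lower, 6 lower and 1 higher, and 1 higher.

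The share of genes called higher differed between the annotated classes of RNA, without a test of the difference. Of 11488 protein-coding genes 411 were higher (3.58%) and 292 lower (2.54%), while of 261 TEC entries (gene models that await experimental proof, most of them unspliced) 103 were higher (39.5%) and 1 lower. Antisense genes had 60 higher of 363 (16.5%) and lincRNAs 51 higher (17.8%) and 2 lower of 286, while processed pseudogenes had 4.44% and snoRNAs 1.95% higher. Without Tet2KO replicate 2 the TEC count was 75 higher and none lower by limma, and the class medians were 0.61 with and 0.59 without it. With the length trend removed as well the medians fell to 0.40 for TEC, 0.24 for antisense genes (0.42 as reported) and 0.16 for lincRNAs (0.34 as reported), and 25 of the 103 TEC entries were called in all 6 fits. The median TPM of the TEC entries was 1.68, 1.33, 1.34 and 1.01 in WT and 2.44, 2.85, 2.4 and 2.74 in Tet2KO, so all 4 Tet2KO libraries lay above WT. These classes lay close to the 1 TPM filter. The median mean abundance was 1.90 TPM for TEC, 2.61 for antisense genes and 3.10 for lincRNAs, against 25.0 for protein-coding genes. Because the filter uses the mean of the same 8 libraries, entries low in WT can enter through Tet2KO. The part of the filter in the class shares and medians was not tested. The median lincRNA level was 2.48 to 2.95 TPM in WT and 3.41 to 3.83 TPM in Tet2KO. The share of intronic or nuclear RNA in the libraries cannot be read from a gene table, and its part in these rises was not tested.

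**Figure D5:**
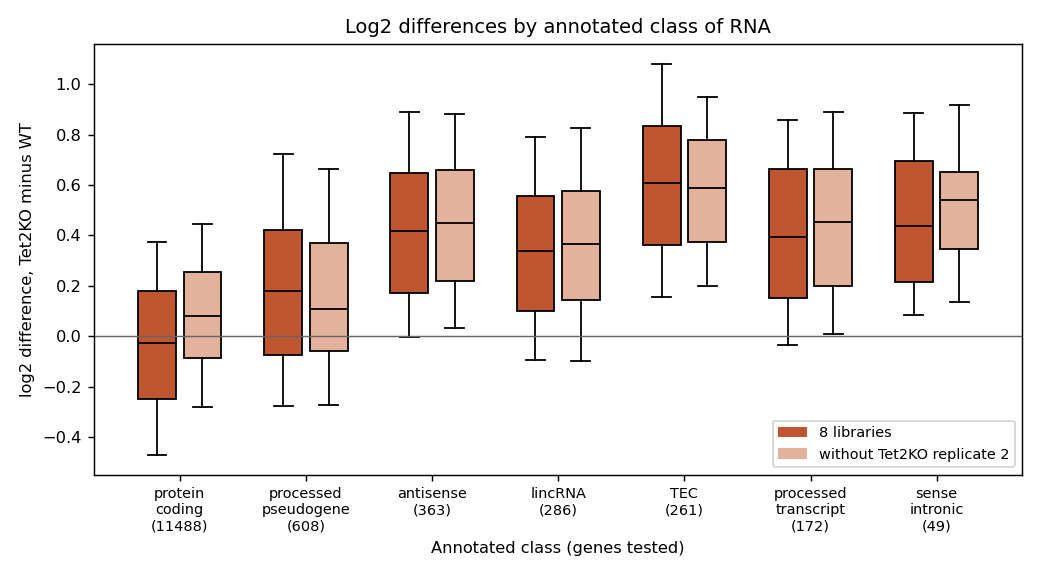
Log2 difference between Tet2KO and WT by annotated class of RNA, with all 8 libraries (dark boxes) and without Tet2KO replicate 2 (light boxes). Boxes span the quartiles with a line at the median, whiskers run from the 10th to the 90th percentile, and numbers under the classes are the genes tested. The protein-coding boxes straddle 0, and among the 7 classes drawn the TEC boxes lie highest, with medians of 0.61 and 0.59.

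Malat1, an abundant nuclear RNA of speckles (ENSMUSG00000092341, chr19:5795690-5802672), rose from 97.6, 93.1, 71.1 and 96.6 TPM to 226, 318, 198 and 259 TPM. The means were 89.6 ± 12.5 and 250 ± 51.6 (SD, n = 4), the log2 difference was 1.46 (SE 0.18, adjusted p = 0.00046), and it passed under all 24 alternatives, with adjusted p from 1.5e-05 to 0.045. The Idh libraries read 77.6 to 171 TPM. Neat1, the RNA scaffold of paraspeckles, was chosen after its value was seen and gave 3.23, 2.14, 2.72 and 7.88 TPM in WT and 9.81, 7.5, 10.9 and 17.7 TPM in Tet2KO, where 1 Tet2KO library lay below the highest of WT (1.38, SE 0.39, adjusted p = 0.041). Lncpint gave 1.67 to 3.88 TPM and 5.79 to 8.32 TPM.

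In 3 transcripts the groups differed most. Sva (ENSMUSG00000023289, chr6:42038394-42042851), a seminal vesicle antigen gene, read 8.51, 8.03, 9.31 and 9.97 TPM in WT and was listed at 0 in Tet2KO replicates 1, 2 and 4 and at 0.135 TPM in replicate 3 (log2 difference -3.27 on the log2(TPM + 1) scale, adjusted p = 3e-08). All 12 Idh libraries read 6.21 to 12.9 TPM. The lincRNA Gm37068 (chr1:35625606-35651297) had the same pattern, at 3.59 to 6.43 TPM in WT, 0 to 0.137 TPM in Tet2KO and 3.79 to 9.26 TPM in the Idh libraries. Both are thus low in exactly the libraries whose label names no Cre, and Tet2 loss, the absence of the transgene and any other difference between the mouse lines cannot be told apart for them. The processed pseudogene Gm14044 (chr2:130384883-130385329) was 0.468 to 1.23 TPM in WT and 23.2 to 33.3 TPM in Tet2KO, but within Idh1R132H it ran from 0.545 to 28.8 TPM and within Idh2R172K from 0.918 to 28 TPM. Gm37068 and Gm14044 fall outside the naming rule and were chosen after their values were seen.

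Some called genes were neighbours, and their number was not set against one for all genes. Runs of 3 or more adjacent tested genes called in the same direction included Hoxb5os, Hoxb5 and Hoxb4 on chromosome 11, Ifit3, Ifit1bl1 and Ifit3b on chromosome 19, Aif1, Lst1 and Ltb on chromosome 17, and Gimap5, Gimap3, Tmem176b and Tmem176a on chromosome 6, all higher in Tet2KO. Gimap5, a GTPase of lymphocyte survival, gave 20.7 to 30.9 TPM in WT and 39.9 to 54.4 TPM in Tet2KO. In its family, looked up after the run was seen, 4 of 8 tested Gimap genes were called higher (50%, against 5.32% of all genes). Called higher protein-coding genes had a median exon length of 2486 bases and called lower genes 4879, against 4385 for all tested, and their median mean abundance was 16.7 and 37.2 TPM against 25 TPM.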

How the data were processed

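RNA of sorted LSK cells was measured in 20 libraries, of which the 4 Tet2KO and 4 WT libraries are compared here. The deposited values are TPM, made by the authors; the submitters' processing notes name Trim Galore, STAR, featureCounts and mm10, without their settings. Versions, annotation release and strand setting are not given in the sources used here. Symbols, coordinates and exon lengths came from GENCODE M21 (45229 of 46078 IDs matched). Depth was read back from TPM times exon length, where 90.1 to 91.2% of values up to 30 reads were whole within 0.1 reads.

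The test was limma 3.58.1 (R 4.3.3) on log2(TPM + 1), with 5 group means over 20 libraries, an intensity trend, 2-sided p-values and Benjamini-Hochberg adjustment over the 14246 genes averaging 1 TPM or more. It was tested on simulated data with independent normal noise around the WT means. Those data held no length trend and no outlying library, so they do not show how the test behaves with either. Fold changes on this scale understate the change of low genes. As the filter is on the mean of the 8 libraries, a gene under 1 TPM in 1 group can pass it through the other. Pools of 2 mice are the replicates, per the series' design text. Lists are described by counts and medians. Members and lists were chosen with earlier results of these data known. The rule names Tet and Idh genes, sort and lineage landmarks, the 15 largest rises and 15 largest falls called with and without Tet2KO replicate 2 whose groups do not overlap, the 10 largest TPM differences, up to 4 called members of each list by smallest p and called Hox, Gbp, Ifitm, Ly6 and Slamf members; not all are printed, and others are said to be so or belong to a counted list. Replicate numbers did not pair the Tet2KO with the WT libraries (correlations of deviations -0.09 to 0.08), and the Idh libraries were not included in that check. Alternatives changed the pseudocount, filter, scaling, libraries, weights, block and variance trend; 3 were added after seeing the data. Python 3.11.15, pandas 2.3.3, numpy 2.4.6 and matplotlib 3.10.9 were used. Some genes of the lists are counted but not reported by name here.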

Additional observations from a re-analysis of the deposited data

Results flagged for a closer look

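In 32 of the 298 groups of 4 examined (the WT and Tet2KO values of the 149 tested genes named in the text), the highest or lowest library stood apart from the other 3, its gap to the nearest divided by the range of the 4 exceeding Dixon's critical value. Chance gives about 1 in 20 such groups. Tet2KO replicate 2 was that library 14 times and WT replicate 4 was 11 times.

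Tet2KO replicate 2 was the highest Tet2KO library for Cd52 (569 TPM), Cdkn1a (93.3 TPM), Hmga2 (17.9 TPM), Hoxb5os (11.3 TPM), Ifi27l2a (240.3 TPM), Lst1 (376 TPM), Ly6a (350.2 TPM) and Trbc2 (18.8 TPM). It was the lowest for Cd34 (323 TPM), Ifit1bl1 (3.24 TPM), Irf9 (48.8 TPM), Phlda2 (10.0 TPM), Slc14a1 (33.0 TPM) and Vwf (1.19 TPM). Of these 14 genes Cdkn1a, Ifi27l2a and Trbc2 were called with all libraries and not without that library.

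WT replicate 4 was the highest WT library for Fosb (7.0 TPM), Hoxa9 (45.4 TPM), Ier3 (202 TPM), Irf7 (48.9 TPM), Itga2b (133 TPM), Mx1 (4.56 TPM), Mx2 (3.72 TPM), Oas2 (12.7 TPM), Stat2 (50.9 TPM) and Xaf1 (14.9 TPM), and the lowest for Wfdc17 (374 TPM). Irf7, Mx1, Mx2, Oas2, Stat2 and Xaf1 are interferon list members.

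The remaining 7 were Aif1 (highest in WT replicate 1, 5.05 TPM), Malat1 (lowest in WT replicate 3, 71.1 TPM), Mpo (lowest in WT replicate 2, 2573 TPM), Prss57 (highest in WT replicate 3, 90.4 TPM), Slc35d3 (lowest in WT replicate 2, 7.55 TPM), Tmem176a (highest in Tet2KO replicate 3, 467 TPM) and Sva (0.135 TPM in Tet2KO replicate 3, where the other 3 libraries are listed at 0).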

How the results depend on the processing

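Against 758 genes higher and 300 lower as reported, the counts stayed within 1.5 times in both directions with a pseudocount of 0.1 and without the variance trend. They became 373 and 188 with a filter at 5 TPM, 1165 and 1536 with median-of-ratios scaling, 4413 and 839 with library weights, and 4105 and 481 without Tet2KO replicate 2 and the number 4 libraries of the other groups. Lower counts moved to 176 without a filter, 1480 with quantile normalization, 1383 with the length trend removed, 823 with that and no Tet2KO replicate 2, 783 rescaled without abundant genes, and 1267 with limma-voom on recovered reads. With only Tet2KO and WT libraries there were 40 and 7, with 6 residual degrees of freedom instead of 15, and 92 and 16 when Tet2KO replicate 2 was left out too. Leaving out 1 library at a time gave 231 to 806 higher and 48 to 678 lower; both lowest counts came without WT replicate 3. Without Tet2KO replicates 1, 3 and 4 in turn there were 748 and 678, 707 and 594, and 292 and 99, and without WT replicates 1, 2 and 4 there were 459 and 102, 494 and 255, and 790 and 168. Elsewhere the cause was not tested.

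The replicate number as a block gave 1779 and 780 over 20 libraries and 4 and 3 over 8. The numbers did not pair the Tet2KO with the WT libraries: the 4 same-number correlations were -0.09, 0.08, -0.04 and 0.08, and 3 of 4 Tet2KO libraries correlated best with another number. The Idh libraries were not included in that check. The median-of-ratios scaling factor was highest in the number 4 library of WT (1.11), Idh1R132H (1.15), Idh2R140Q (1.21) and Idh2R172K (1.16), but not of Tet2KO (1.04). The part of the number 4 libraries in the spread was not tested.

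Of the 149 genes named, 0 that were called and 16 that were not changed sign under any alternative, 8 of them without Tet2KO replicate 2. Of the 16, Ifih1 was called with the other sign: 0.26 with library weights and 0.27 without Tet2KO replicate 2 and the number 4 libraries. Of the 110 named genes that were called, 91 lost the call with only the 8 libraries and 21 without Tet2KO replicate 2. Malat1, Ifitm1 and Gm14044 were called in all 24 alternatives. The deposited table gives no isoforms, strand or exon-level values, and 4 pools a group limit what small differences can be called.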

Other observations

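Other lists are given beside the shares of all genes, 5.32% higher and 2.11% lower. Of 26 tested genes of haem synthesis and iron handling 2 were higher (7.69%) and 4 lower (15.4%), with a median log2 difference of -0.10. Without Tet2KO replicate 2 there were 2 and 1. Of 32 genes of the citrate cycle and 2-oxoglutarate metabolism 2 were lower (6.25%) and none higher by limma (9 lower and 0 higher at an unadjusted p under 0.05). Neither of the 2 was called without Tet2KO replicate 2, and the list's median moved from -0.22 to -0.07. Of 12 genes of MAP kinase feedback 2 were lower (16.7%), and neither was called without Tet2KO replicate 2. Of 52 replication-dependent histone genes 3 were higher (5.77%).

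Families looked up after their values were seen included Tceal and Bex, small X-linked genes, with 6 of 9 tested members higher (66.7%, against 5.32% of all genes) and a median of 0.44. Another was Fxyd, small regulators of the sodium pump, with 3 of 5 higher (60%). With the length trend removed, 0 members of either family were called by limma, while at an unadjusted p under 0.05 in the fit as reported there were 8 and 3.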
